A study of Mus musculus with 10 samples.

Results

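The 9 genes described here encode enzymes of the tricarboxylic acid (TCA) cycle: Cs, Idh2, Idh3a, Idh3b, Idh3g, Ogdh, Suclg1, Sucla2 and Mdh2. They were chosen by name, with earlier results of these data known. All 9 were measured, each by 1 probe set, among 22180 genes on the array. The samples were plantaris muscles, a muscle of the calf, of male C57BL/6 mice. Overload was made by synergist ablation, an operation that removes the muscles sharing the work of the plantaris. There were 5 groups with 2 arrays each: no overload and no inhibitor, overload for 3 d alone, overload for 3 d under a blocker of PDGF (platelet-derived growth factor), overload for 10 d alone, and overload for 10 d under that blocker, called the inhibitor here. The labels do not name the inhibitor, its dose or a vehicle, and no group received it without overload. Each array held equal RNA of 4 muscles, so an array is called a pool here and carries no spread between animals. It is not stated if paired arrays hold RNA of different mice, so p-values measure the spread between these pools only. A whole muscle holds several cell types, and fewer cells of a type cannot be told apart from less RNA per cell.

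The TCA cycle runs in the mitochondrial matrix and oxidises the acetyl groups that come from pyruvate, fatty acids and amino acids. Its electrons go to the respiratory chain as NADH and FADH2, and its intermediates are drawn off for synthesis of amino acids, fatty acids and haem. Muscle fibres are rich in these enzymes, and citrate synthase activity is a common measure of the mitochondrial content of a muscle. Measured here were transcripts, not enzyme activity or protein.

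For the 9 genes the pools of a group lay close together. Array medians lay between 2.40 and 2.45 log2 units, and the defining transcripts of muscle fibres were among the bright ones, with a median level of 11.01 to 11.30 over 21 fibre markers in the 10 pools. The widest gap between the pools of a group for any of the 9 genes was 0.33 log2 units, for Idh2 at 10 d with inhibitor. Pool 1 of 3 d overload stood apart in neutrophil markers, with a list score of 2.55 against -0.48 in its partner, where a list score is the median, over the genes of a list, of log2 values centred on the gene's 10-pool mean. For the 9 TCA genes the scores of those pools were -0.32 and -0.31.

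The question of the first comparison was how transcripts of the cycle stood after 3 d of overload. All 9 fell against no overload (adjusted p under 0.05, limma with Benjamini-Hochberg adjustment over all genes), where 8.18% of all genes tested were called lower. The median change of the 9 was -0.83 on the log2 scale, which left 56.3% of the level without overload, while the median over all genes was -0.04. In each of the 9, both 3 d pools lay below both pools without overload, an order that 30.7% of all genes showed. With dim genes left out (mean level below the median gene), all 9 fell, where 2185 of the 11090 genes then tested were called lower.

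Citrate synthase (Cs), which joins acetyl-CoA to oxaloacetate at the entry of the cycle, stood at 10.63 and 10.73 log2 units without overload and at 9.99 and 9.85 after 3 d. The fall was 0.76 ± 0.14 (SE, n = 2 pools per group; limma adjusted p = 0.00572), so 59.2% of the level was left, with a 95% interval of 47.8% to 73.2%. Malate dehydrogenase 2 (Mdh2), which remakes oxaloacetate at the end of the cycle, was at 10.82 and 10.81 without overload and at 10.13 and 10.16 after 3 d. It fell by 0.67 ± 0.12 (adjusted p = 0.00639), leaving 62.8%. The gap between groups was far wider than the gap between pools for both genes.

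The isocitrate dehydrogenases held both the largest and the smallest fall. Idh2, which uses NADP and feeds the NADPH supply of the mitochondrion, was at 9.72 and 9.78 without overload and at 8.34 and 8.21 after 3 d. Idh2 fell by 1.48 ± 0.15 (adjusted p = 5.45e-04), the deepest fall of the 9, with 35.9% of the level left (95% interval 28.3% to 45.7%). Only 167 of the 22180 genes had a more negative change. Idh3a encodes the catalytic subunit of the NAD-linked enzyme, the form that drives the cycle, and Idh3b and Idh3g encode its other subunits. Idh3a went from 10.53 in both pools to 9.57 and 9.68 and fell by 0.91 ± 0.14 (adjusted p = 0.00261). Idh3g went from 10.58 and 10.75 to 10.07 and 10.08 and fell by 0.59 ± 0.14 (adjusted p = 0.0215). Idh3b went from 10.90 and 11.02 to 10.50 and 10.47 and fell by 0.48 ± 0.13 (adjusted p = 0.0409), leaving 71.8% (95% interval 58.1% to 88.7%). The intervals of Idh2 and Idh3b did not overlap. Those of the 3 Idh3 subunits did, and the difference between members was not tested.

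The enzymes of the steps from 2-oxoglutarate to succinate fell as well. Ogdh, the dehydrogenase subunit of the 2-oxoglutarate dehydrogenase complex, was at 10.28 and 10.42 without overload and at 9.46 and 9.50 after 3 d, and fell by 0.87 ± 0.13 (adjusted p = 0.0027). Suclg1, the alpha subunit shared by both forms of succinyl-CoA ligase, went from 7.42 and 7.28 to 6.45 and 6.41 and fell by 0.92 ± 0.15 (adjusted p = 0.00378). Sucla2, the beta subunit of the ATP-forming ligase, went from 8.99 and 9.25 to 8.27 and 8.32 and fell by 0.83 ± 0.14 (adjusted p = 0.00423). Between 52.9% and 56.3% of the level was left for these 3 genes.

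**Figure D1:**
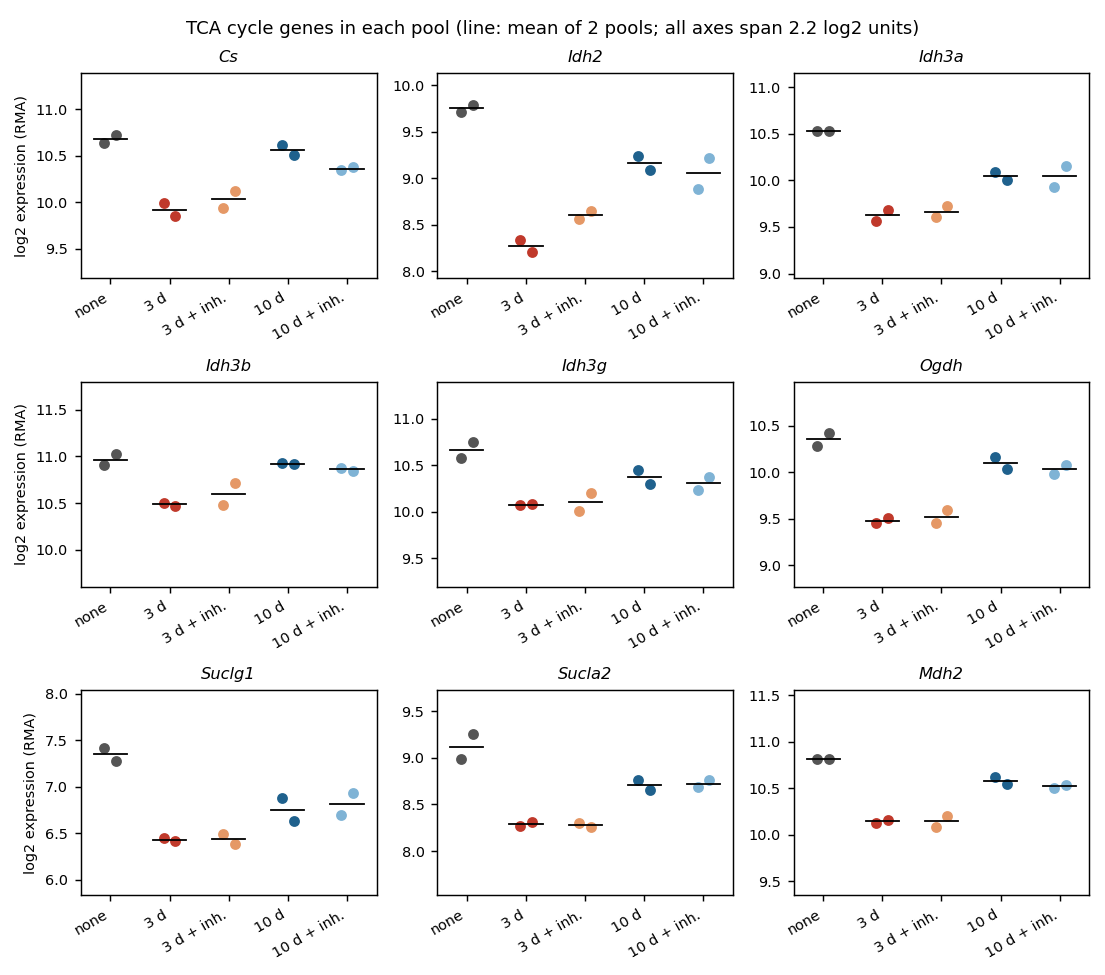
Log2 expression (RMA) of each of the 9 genes in each of the 10 pools by group, with points for pools and a line at the mean of 2 pools; every vertical axis spans the same range. The 3 d pools lie below the pools without overload in every panel, and the 10 d pools lie between them for all genes but Idh3b, whose 10 d pools (10.93 and 10.92) lie between the pools without overload.

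With single pools left out, 7 of the 9 genes passed in all 10 omissions, with adjusted p up to 0.0438. Idh3g passed in 6 of 10 (log2 -0.67 to -0.50, adjusted p up to 0.115), and was lost when any 1 of the 3 d pools or of the pools without overload was left out, each time with 7 of the 9 genes called. Idh3b passed in 2 of 10 (-0.54 to -0.42, adjusted p up to 0.171), kept only when a pool of 3 d overload with inhibitor was left out. Both were also lost when only the groups compared were fitted (adjusted p = 0.0625 for Idh3g and 0.0967 for Idh3b).

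Transcripts of other cells rose in the same comparison. All 12 macrophage markers rose, with scores of -2.00 and -1.67 in the pools without overload and 1.45 and 1.16 in the 3 d pools, and all 7 markers of dividing cells rose. Of 10 fibroblast markers 6 rose, and the rest did not pass. Of 8 neutrophil markers 1 rose, of 8 endothelial markers 2 fell, of 8 pericyte and smooth muscle markers 1 rose and 1 fell, of 7 slow fibre markers 1 rose and 2 fell, and none of 5 fat cell markers passed. Of 21 mature fibre markers, 4 fell and none rose, with a median of -0.18 and scores of 0.02 and 0.04 without overload and -0.13 and -0.10 after 3 d. The falls were in Myoz1 (-0.80), Tcap (-0.70), Ryr1 (-0.47) and Tnni2 (-0.44), while actin (Acta1) was at 0.03. Taken relative to the median of the fibre markers in each pool, 8 of the 9 TCA genes fell, with a median of -0.79. In that setting 1588 of all 22180 genes were called lower, and Idh3b was lost (-0.44, limma adjusted p = 0.0501). The part of the other cell types in the fall of the TCA genes was not tested.

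The transcripts moved together, and the sequence at their start sites can be set beside this. RefSeq windows on GRCm38.p6, from 250 bases before to 50 after a start site, were matched by symbol for 8 of the 9 genes (13 windows, 6 of them for Ogdh), and not for Idh3a. They were searched on both strands for 5 short motifs known from mitochondrial and muscle genes. AAGGTCA, the element of oestrogen-related receptors, was found at Ogdh alone. CCGGAAG, the core bound by GABP (also called NRF-2), was found at Idh3b and Idh3g. The pattern searched for NRF-1, GCGCA and GCGC with any 1 base between, was found at Sucla2, and CACGTG, an E-box, at Ogdh. The pattern searched for MEF2, CTA and TAG with any 4 bases between, was found at none of the 8. In all, 27025 mouse genes had 32851 windows of this length. Of these genes 5.38% held the first of these motifs in any window, 9.93% the second and 5.19% the third. The E-box was held by 8.09% and the MEF2 pattern by 4.23%. No motif was shared by more than 2 of the 8 genes. A match of letters is no evidence of binding.

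Shown are the windows of Idh2 and Idh3b, the genes with the deepest and the shallowest fall, and of Ogdh and Sucla2, which hold matches. Motif matches are in capitals, and each sequence is given 5′ to 3′ along its gene. Idh2 lies at chr7:80115301-80115600 on the minus strand, Idh3b at chr2:130284402-130284701 on the minus strand, Ogdh at chr11:6291920-6292219 on the plus strand (the fourth of its windows by position) and Sucla2 at chr14:73552536-73552835 on the plus strand.
Idh2: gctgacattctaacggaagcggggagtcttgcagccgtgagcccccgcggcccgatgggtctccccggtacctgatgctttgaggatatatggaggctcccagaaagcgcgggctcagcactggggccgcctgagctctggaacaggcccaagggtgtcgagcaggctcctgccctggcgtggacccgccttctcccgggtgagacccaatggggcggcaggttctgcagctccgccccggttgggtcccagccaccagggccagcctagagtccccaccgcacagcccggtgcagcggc
Idh3b: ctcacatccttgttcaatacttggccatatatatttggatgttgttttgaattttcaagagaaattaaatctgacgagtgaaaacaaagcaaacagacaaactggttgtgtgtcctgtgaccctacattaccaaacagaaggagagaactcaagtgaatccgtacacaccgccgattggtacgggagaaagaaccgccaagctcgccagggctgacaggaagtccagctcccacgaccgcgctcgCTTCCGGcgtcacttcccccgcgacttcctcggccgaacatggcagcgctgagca
Ogdh: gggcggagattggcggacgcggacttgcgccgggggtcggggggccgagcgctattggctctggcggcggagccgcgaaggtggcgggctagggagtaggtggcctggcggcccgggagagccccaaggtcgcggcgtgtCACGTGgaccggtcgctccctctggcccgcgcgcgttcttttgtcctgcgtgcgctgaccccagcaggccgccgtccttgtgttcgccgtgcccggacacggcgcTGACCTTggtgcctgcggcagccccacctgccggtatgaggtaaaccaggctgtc
Sucla2: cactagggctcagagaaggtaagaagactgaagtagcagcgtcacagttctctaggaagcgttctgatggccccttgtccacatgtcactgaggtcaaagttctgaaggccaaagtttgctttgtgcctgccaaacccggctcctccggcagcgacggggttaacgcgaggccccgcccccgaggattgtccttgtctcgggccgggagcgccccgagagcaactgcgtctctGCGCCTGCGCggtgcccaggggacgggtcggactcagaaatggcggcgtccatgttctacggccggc
The Idh2 window held none of the 5 motifs, and neither did those of Cs, Suclg1 and Mdh2. GC content was 68.3% for Idh2, 50.3% for Idh3b, 72.3% for the Ogdh window shown and 62.0% for Sucla2. The median over all mouse windows was 52.7%. The GABP match of Idh3b begins 5 bases before the start site and lies on the reverse strand. In the Ogdh window the E-box begins 110 bases before and the AAGGTCA match 5 bases before the start site. The NRF-1 match of Sucla2 begins 17 bases before it.

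By 10 d of overload the 9 genes stood closer to the muscle without overload. None passed against no overload (limma adjusted p from 0.0577 to 0.913), where 1.23% of all genes were called lower. An unadjusted p under 0.05, in either direction, was found for 4 of the 9 and for 4497 of all 22180 genes. The median change was -0.29, with a median of -0.04 over all genes, and all 9 values were below 0. In 8 of the 9 both 10 d pools lay below both pools without overload, as in 28.1% of all genes. Suclg1 (6.88 and 6.63) was at -0.60 ± 0.15 (adjusted p = 0.0577) and Idh2 (9.24 and 9.09) at -0.58 ± 0.15 (0.0654), each with 66.1% to 66.8% of the level without overload. Idh3a (10.09 and 10.00) was at -0.48 ± 0.14 (0.0805) and Sucla2 (8.77 and 8.66) at -0.41 ± 0.14 (0.141). The other 5 were closer to 0. Idh3g was at -0.29, Ogdh at -0.25, Mdh2 at -0.23 and Cs at -0.12, whose interval ran from 74.5% to 114% of the level without overload. Idh3b was at -0.04, with its 10 d pools inside the range of the pools without overload. At 10 d 10 of 12 macrophage, 9 of 10 fibroblast, 6 of 7 dividing-cell and 3 of 7 slow fibre markers rose, with list medians of 1.85, 1.78, 2.03 and 0.83, and none of 21 mature fibre markers passed (0.07). Their part in the values of the TCA genes was not tested.

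These calls lay near the threshold. Idh2, Idh3a and Suclg1 fell when dim genes were left out (adjusted p = 0.0244, 0.0275 and 0.0211), when changes were taken relative to the fibre markers, and at a common median over the genes tested. With an intensity trend and robust moderation, 5 of the 9 fell, Sucla2 and Mdh2 in addition.

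Between 3 d and 10 d of overload, 3 of the 9 genes rose, where 2.70% of all genes were called higher, and these comparisons share the 3 d or 10 d pools with those above. Idh2 rose by 0.89 ± 0.15 (limma adjusted p = 0.0149), Cs by 0.64 ± 0.14 (0.0298) and Ogdh by 0.62 ± 0.13 (0.0304). All 9 values were above 0 (0.29 to 0.89, median 0.44 against 0.01 over all genes), and in all 9 both 10 d pools lay above both 3 d pools, as in 24.6% of all genes. Mdh2 (0.44, adjusted p = 0.0763), Idh3b (0.44, 0.0976), Idh3a (0.42, 0.115), Sucla2 (0.42, 0.120), Suclg1 (0.32, 0.270) and Idh3g (0.29, 0.290) did not pass. As a ratio of changes between group means, with no error of its own, the share of the 3 d fall regained at 10 d was 91.8% for Idh3b, 84.4% for Cs and 71.3% for Ogdh, and lowest for Suclg1 at 35.0%. With the inhibitor the shares ran from 35.3% for Idh3g to 72.4% for Idh3b. In the same comparison of times 5 of 12 macrophage markers fell (list median -1.15) and 5 of 7 dividing-cell markers fell (-1.54), while 3 of 7 slow fibre markers (0.80), 3 of 21 mature fibre markers (0.26) and 1 of 10 fibroblast markers (0.53) rose. Their part in the rise of the TCA genes was not tested. The 3 calls did not hold throughout. None of the 9 passed without 3 d pool 1, 3 d pool 2 or 10 d pool 1, and 1 (Idh2) passed without 10 d pool 2 or without either pool of 10 d overload with inhibitor. Relative to the fibre markers Idh2 alone passed (0.76, adjusted p = 0.0203). Fitting only the groups compared called none, leaving out dim genes called 7 and trend with robust moderation called 8.

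**Figure D2:**
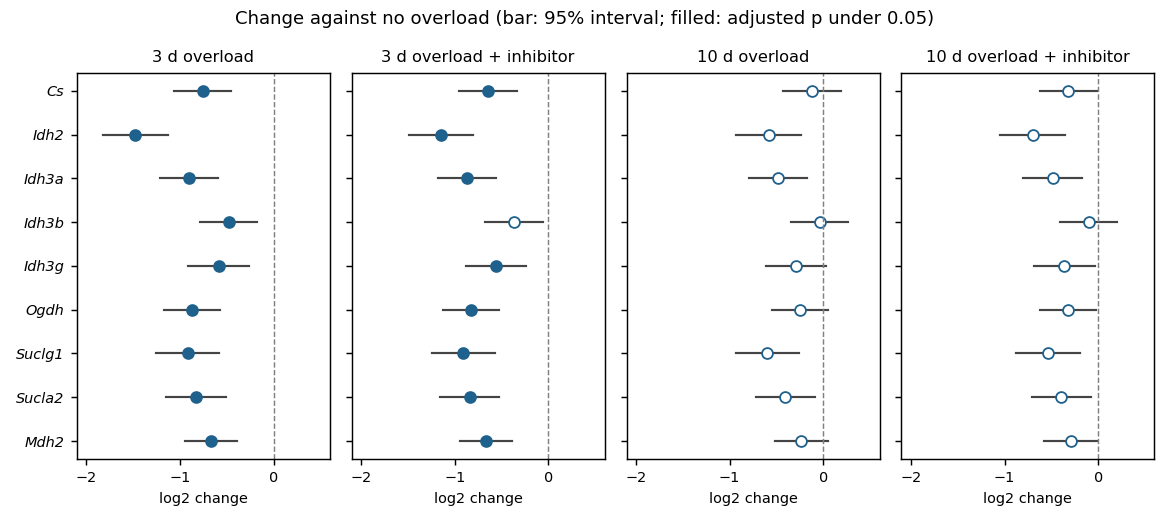
Log2 change of the 9 genes against no overload in each overloaded group, with 95% intervals from the limma fit; filled points passed an adjusted p of 0.05. All 9 points are filled at 3 d and 8 of 9 at 3 d with inhibitor, and none is filled at 10 d, where the values run from -0.60 to -0.04 without and from -0.70 to -0.10 with the inhibitor.

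In muscles that received the PDGF inhibitor the same genes were low at 3 d. Against no overload, 8 of the 9 fell (6.51% of all genes were called lower), with a median of -0.83, and in all 9 both pools lay below both pools without overload, as in 26.4% of all genes. Idh2 (8.56 and 8.64) fell by 1.15 ± 0.15 (limma adjusted p = 0.00224), Suclg1 (6.49 and 6.39) by 0.91 ± 0.15 (0.00532), Idh3a (9.61 and 9.72) by 0.86 ± 0.14 (0.00441) and Sucla2 (8.30 and 8.26) by 0.84 ± 0.14 (0.00533). Ogdh fell by 0.83, Mdh2 by 0.67, Cs by 0.65 and Idh3g by 0.56. Idh3b, with unequal pools of 10.48 and 10.72, was at -0.37 ± 0.13 and did not pass (0.116). Here 11 of 12 macrophage markers (list median 2.45), 6 of 7 dividing-cell markers (2.31) and 3 of 10 fibroblast markers (0.41) rose, and 2 of 21 mature fibre markers fell (-0.17), whose part in the fall was not tested. When only the groups compared were fitted 5 of the 9 passed, where 746 of all 22180 genes were called lower. With single pools left out the median of the 9 ran from -0.84 to -0.71. At 10 d with inhibitor none passed (adjusted p from 0.0644 to 0.793, 0.428% of all genes called lower). There 8 of the 9 had an unadjusted p under 0.05, as had 3355 of all 22180 genes in either direction. In all 9 the pools lay below those without overload, as in 25.1% of all genes. The median there was -0.36, with Idh2 (8.89 and 9.22) at -0.70 ± 0.15, Suclg1 (6.70 and 6.93) at -0.53 ± 0.15 and Idh3a (9.93 and 10.15) at -0.49 ± 0.14. With trend and robust moderation 8 of the 9 fell in this comparison, all but Idh3b, where 430 of all 22180 genes were called lower. When dim genes were left out 2 fell, Idh2 and Idh3a, where 295 of the 11090 genes then tested were called lower. Against no overload, 7 of 12 macrophage, 4 of 10 fibroblast and 3 of 7 dividing-cell markers rose at 10 d with inhibitor. Their list medians ran from 0.48 to 1.42, and the part of these cells in the values of the TCA genes was not tested. These comparisons share the pools without overload with those of overload alone.

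The direct comparison of inhibited with uninhibited overload addressed whether blocking PDGF signalling changed these transcripts. No difference passed at either time (limma, with 0.00% of all genes called at 3 d and 0.104% at 10 d). None of the 9 had an unadjusted p under 0.05 at either time, while 2011 of all 22180 genes had at 3 d and 2352 at 10 d. At 3 d the values ran from -0.01 to 0.33 with a median of 0.04. The highest was that of Idh2, at 0.33 ± 0.15 (adjusted p = 0.568), whose inhibited pools both lay above the uninhibited ones, as in 22.3% of all genes, with a 95% interval of 98.8% to 160% of the uninhibited level. In the other 8 genes the groups overlapped. At 10 d the values ran from -0.20 to 0.06 with a median of -0.06. The lowest was that of Cs, at -0.20 ± 0.14 (adjusted p = 0.666), with inhibited pools at 10.35 and 10.37 and uninhibited ones at 10.62 and 10.50, and an interval of 70.4% to 108%. Idh3b and Mdh2 were also lower in both inhibited pools at 10 d, an order that 19.5% of all genes showed, with differences of -0.06 each.

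Over both times together, the mean inhibitor effect ran from -0.04 to 0.11, and its intervals from -0.26 to 0.35 on the log2 scale. Changes beyond 83.4% to 128% of the uninhibited level therefore lay outside every interval of the 9 genes, while smaller ones were not resolved with 2 pools per group. None of the 9 passed (adjusted p from 0.739, 0.289% of all genes called). None had an unadjusted p under 0.05, against 2817 of all 22180 genes. The difference between the inhibitor effects at 10 d and 3 d did not pass either (0.00% of all genes called). Again none of the 9 had an unadjusted p under 0.05, against 1434 of all genes. The values ran from -0.44 for Idh2 (± 0.21, adjusted p = 0.789) to 0.05 for Suclg1. List medians of markers of other cells differed between the same groups, with few genes called. The macrophage list had a median of -0.51 at 3 d and -0.55 at 10 d with inhibitor, the fibroblast list -0.44 and -0.92, with no gene of either passing, and of 7 markers of dividing cells (medians -1.22 and -1.34) Top2a fell at 10 d and 5 fell over both times together. The neutrophil marker Csf3r rose at 10 d with inhibitor. These calls did not hold throughout. Fitting only the groups compared called 0 of all genes lower at 10 d, and not every omission of a single pool kept them. The slow fibre list had medians of -0.09 at 3 d and -0.58 at 10 d, with 6 of 7 values below 0 at 10 d and none passing. Slow fibre scores at 10 d were 0.65 and 0.67 without inhibitor, and -0.18 and 0.31 with it. The part of these cells and fibres in the values of the TCA genes was not tested.

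**Figure D3:**
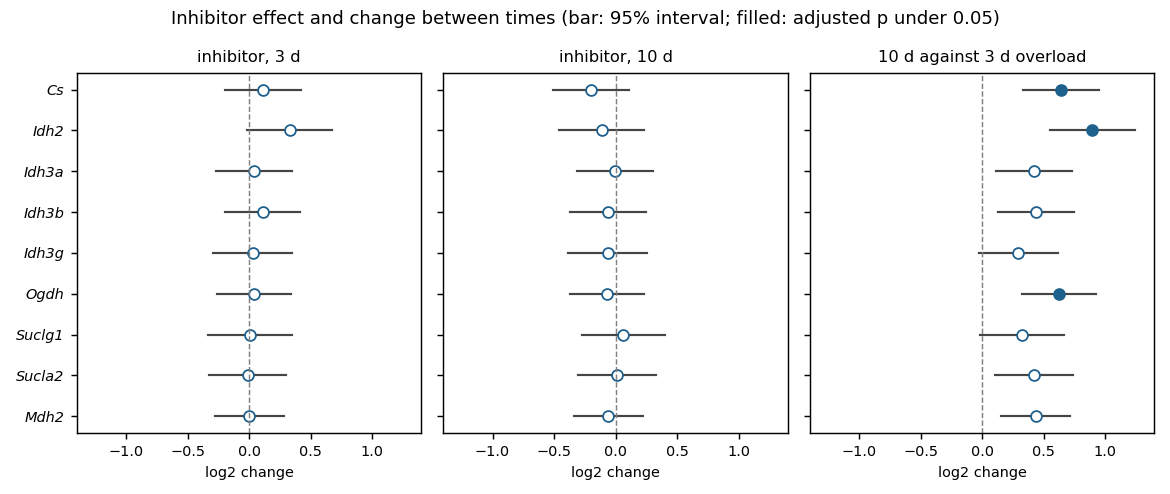
Log2 difference of the 9 genes between inhibited and uninhibited overload at 3 d and 10 d, and between 10 d and 3 d of overload, with 95% intervals from the limma fit; filled points passed an adjusted p of 0.05. No inhibitor effect is filled and every such interval holds 0, while Cs, Idh2 and Ogdh are filled between the times.

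The other enzymes of the cycle showed the fall too. Of 8 analysed here, 7 fell at 3 d with a median of -0.80. Sdhb and Sdha, the iron-sulphur and flavin subunits of succinate dehydrogenase, fell by 0.86 ± 0.15 (limma adjusted p = 0.00471) and 0.85 ± 0.15 (0.0048), fumarase (Fh1) by 0.85 ± 0.14 (0.0038) and Sdhd, a membrane anchor of succinate dehydrogenase, by 0.80. Suclg2, the beta subunit of the GTP-forming succinyl-CoA ligase, fell by 0.80 ± 0.14 (0.00555), beside 0.83 for its ATP-forming counterpart Sucla2. Dlst and Dld, the other subunits of the complex that Ogdh starts, fell by 0.55 and 0.57, and Sdhc did not pass (-0.54, 0.0565). At 10 d none of the 8 passed (median -0.41, all below 0). An unadjusted p under 0.05 was found for 6 of the 8, against 4497 of all 22180 genes in either direction. Between the times Sdhb alone rose (0.61, 0.0473). No inhibitor effect passed.

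The pyruvate dehydrogenase complex, which makes acetyl-CoA from pyruvate for Cs, fell in part. Of 11 genes of the complex and its regulators, 6 fell and 1 rose at 3 d. Pdpr and Pdp1, a regulatory and a catalytic subunit of the phosphatase that switches the complex on, fell by 1.29 ± 0.15 (limma adjusted p = 9.35e-04) and 1.17 ± 0.19 (0.00401). Of the subunits of the complex, Pdha1 fell by 0.87, Pdhx by 0.82 and Pdhb by 0.52, while Dlat was at -0.35 and did not pass. Among the kinases that switch it off, Pdk2 fell by 0.80 and Pdk3 rose by 1.06 ± 0.20 (0.00726), still raised at 10 d by 0.94 ± 0.20 (0.0343), while Pdk1 (-0.34) and Pdk4 (-0.51) did not pass. Pdpr rose between 3 d and 10 d by 0.78 ± 0.15 (0.0231).

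Carriers and enzymes that fill or drain the cycle split. Of 12 measured, 4 fell at 3 d: Slc25a11, the carrier of 2-oxoglutarate and malate, by 0.86 ± 0.15 (limma adjusted p = 0.00487), the aspartate-glutamate carrier Slc25a12 by 0.79 ± 0.13, the pyruvate carrier Mpc1 by 0.61 and pyruvate carboxylase (Pcx) by 0.51 (0.0482). Me2, a malic enzyme of the mitochondrion, rose by 1.42 ± 0.25 (0.00486), and Slc25a1, the citrate carrier, by 1.02 ± 0.22 (0.0143). At 10 d none of the 12 passed, with a median of 0.00. There 4 had an unadjusted p under 0.05, against 4497 of all 22180 genes. Between the times Slc25a11 rose (0.66, 0.0367). Of 6 cytosolic counterparts, the malate-aspartate shuttle enzymes Got1 (-0.89) and Mdh1 (-0.75) and the malic enzyme Me1 (-0.68) fell at 3 d, and Acly, which splits exported citrate for lipid synthesis, rose by 1.28 ± 0.18 (0.00219). The cytosolic isocitrate dehydrogenase Idh1 was at 0.00 and Aco1 at -0.04, and neither passed, beside the change of -1.48 in Idh2.

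**Figure D4:**
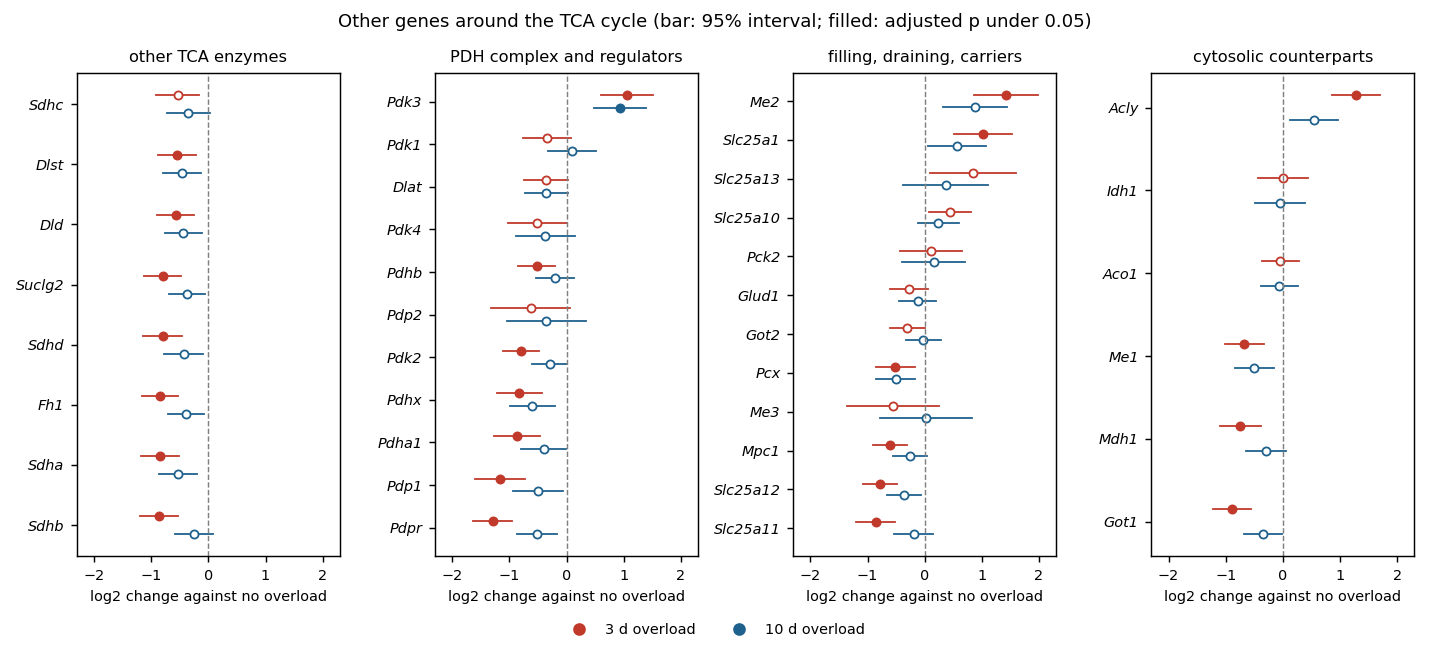
Log2 change against no overload at 3 d and 10 d of overload for genes around the cycle, with 95% intervals from the limma fit; filled points passed an adjusted p of 0.05. The other TCA enzymes all lie left of 0, while Pdk3, Me2, Slc25a1 and Acly are filled to the right at 3 d.

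Set beside other mitochondrial lists, the 9 genes lay near those of respiration. At 3 d the medians were -0.83 for the 9, -0.78 for 20 oxidative phosphorylation genes (15 fell) and -0.96 for 16 genes of fatty acid oxidation (14 fell). At 10 d they were -0.29, -0.31 (1 fell) and -0.40 (3 fell). The list of 13 genes of the outer membrane and protein import had a median of -0.16 at 3 d, with Vdac1 and Immt lower and 11 not passing, and -0.25 at 10 d, with none passing. These lists were not tested against each other.

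**Figure D5:**
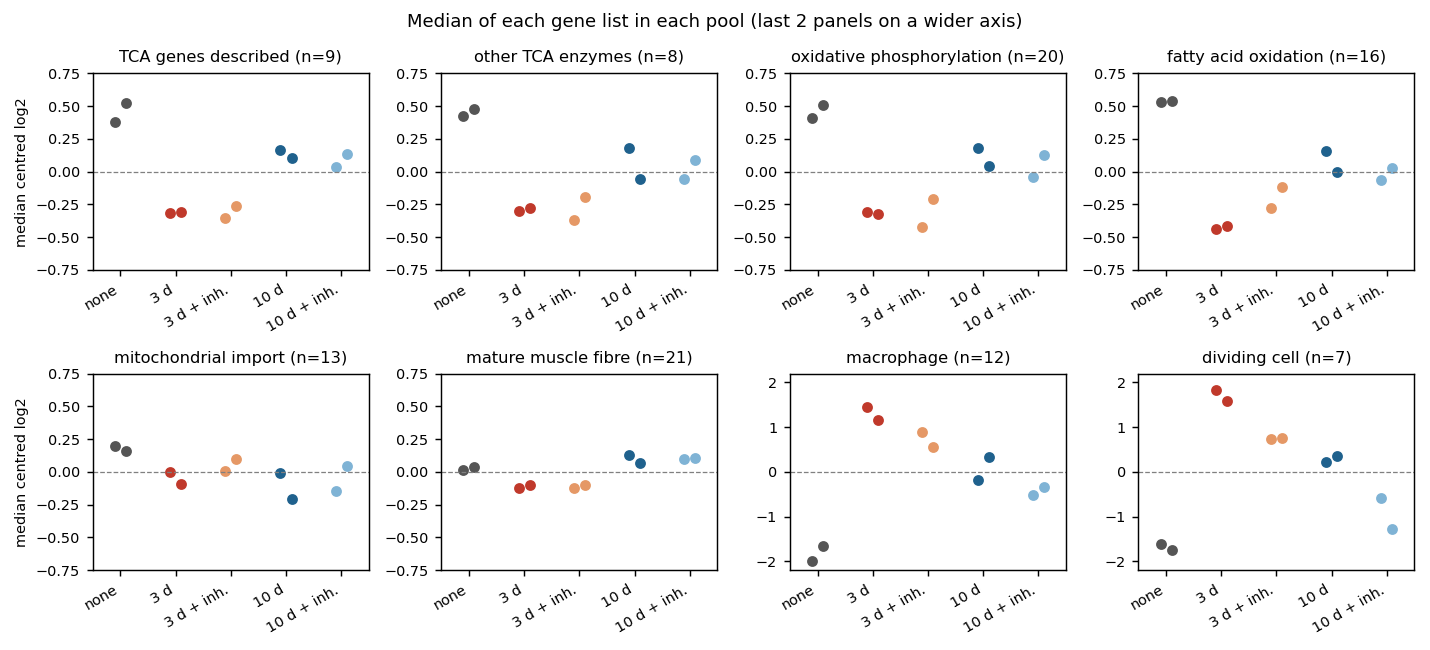
Median over each gene list of log2 values centred on the gene's mean over 10 pools, in each pool by group; n is the number of genes. The 9 TCA genes run from 0.37 and 0.52 without overload to -0.32 and -0.31 at 3 d, mature fibre markers stay between -0.13 and 0.13, and macrophage and dividing-cell markers run the other way on a wider axis.

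Among themselves the 9 genes kept close to 1 pattern over the 10 pools. Each gene's correlation with the mean of the other 8 lay between r = 0.90 (Idh3b) and 0.99 (Mdh2). The closest of the 36 pairs was Ogdh with Mdh2 (r = 0.99) and the least close Idh3b with Suclg1 (r = 0.74), the genes that had regained most and least at 10 d. These values describe 10 pools that share 5 groups. Over all other genes the pattern most like the mean of the 9 was that of Pdpr (r = 0.996), followed by Got1 (0.995), the muscle glycogen synthase Gys1 (0.992), the fast troponin Tnni2 (0.992), Abca8b (0.991), Rab28 (0.990), the mitochondrial outer membrane channel Vdac1 (0.989) and the complex III subunit Uqcrc2 (0.987). These were the 8 highest by rank over the genes on the array, with no test. Left out of the ranking were unnamed gene models, symbols containing Rik, small RNAs, and olfactory and vomeronasal genes. The most opposite were Il4ra, a receptor subunit for interleukin 4 (-0.993), Alox5ap, a protein of leukotriene synthesis (-0.987), the oncostatin M receptor Osmr (-0.985) and the chemokine Ccl6 (-0.985).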

How the data were processed

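RNA pools from plantaris muscle were hybridised to 10 Affymetrix Mouse Gene 2.1 ST arrays, a 1-colour platform. The labels' protocols name 2 different labelling kits, and which was used is not settled here. The log2 values deposited by the authors were made with RMA in oligo and tested with limma, per the submitters' processing notes, while versions and the genome build were not given in those sources. RMA corrects background and brings all arrays to one distribution, so values are relative within an array.

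Of 41345 probe sets, 23521 had 1 gene symbol in the platform annotation, 1814 had several and 16010 had none or were not listed. The brightest probe set stood for each of 22180 genes. One model over all 10 pools, with a coefficient per group and moderated variances (limma 3.58.1, R 4.3.3), gave 9 comparisons. Benjamini-Hochberg adjustment ran over all genes, with calls at an adjusted p under 0.05. SEs and 95% intervals come from this model. The model was also run on simulated data with independent errors between pools, which checks the code and not the calls made here. Depth has no counterpart on arrays, and the number of pools limits the precision.

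The 9 genes, the gene lists and the marker lists were chosen with earlier results of these data known. In the lists around the cycle genes are named with their values, elsewhere up to 4 called genes of largest change, and the 8 genes most and 4 least like the mean profile. Alternatives covered scaling, choice of probe set, dim genes, moderation, the samples fitted and each pool left out. Scaling to a common median over the genes tested was added after seeing the data.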

Additional observations from a re-analysis of the deposited data

How the results depend on the processing

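No paired analysis was possible because the labels give the pools no replicate numbers. All 9 genes kept a negative change at 3 d under every alternative, and 7 of the 9 were called throughout. The count of genes called was 7 to 9 with single pools left out. At 10 d against no overload 0 became 3 at a common median over the genes tested, relative to fibre markers or without dim genes, and 5 with trend and robust moderation. From 3 d to 10 d, 3 became 1 relative to fibre markers, 7 without dim genes, 8 with trend and robust moderation and 0 with only the groups compared, and 0 to 3 with single pools left out. At 3 d with inhibitor 8 became 5 with only the groups compared and 5 to 8 with single pools left out. At 10 d with inhibitor 0 became 1 relative to fibre markers, 2 without dim genes and 8 with trend and robust moderation. There 95 of all genes were called lower, against 282 relative to fibre markers and 430 with trend and robust moderation. Without dim genes it was 295 of the 11090 genes then tested. Of all genes, 273 were called lower at 10 d of overload alone. This became 896 at the common median over genes and 838 with trend and robust moderation. It was 672 of only 11090 genes tested without dim genes, 577 relative to fibre markers and 2 with only the groups compared. From 3 d to 10 d 598 were called higher, against 1172 with trend and robust moderation and 1141 of 11090 without dim genes. There were 377 relative to fibre markers and 61 with only the groups compared. With single pools left out these counts ran from 42 (without 10 d pool 2) and 43 (without pool 1 of no overload) to 246 at 10 d, and from 92 to 470 between the times, with 92 and 170 without 3 d pools 1 and 2 and 252 and 353 without 10 d pools 1 and 2. Of the 1815 called lower at 3 d, 907 and 1043 were counted without the 3 d pools and 1058 and 1156 without the pools of no overload. With inhibitor, the 1443 called lower at 3 d became 491 to 1408 and the 95 at 10 d became 5 to 120, lowest without pool 1 of the inhibited group each time.

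Scaling moved both levels and calls. At a common median over the genes tested, an alternative chosen after seeing the data, the median change of all genes went from -0.04 to -0.23 at 3 d and from -0.04 to -0.21 at 10 d, and the share of calls that were higher from 53.2% to 32.2% and from 76.0% to 43.1%. With inhibitor that share went from 54.2% to 39.8% at 3 d and from 72.5% to 62.0% at 10 d. In the inhibitor's effect at 10 d the share rests on few calls. It went from 21.7% (5 higher, 18 lower) to 41.2% (7 higher, 10 lower). Relative to fibre markers it was 54.4% at 10 d, 22.2% (from 44.4%) between the times, 67.1% at 3 d with inhibitor and 39.5% at 10 d with inhibitor. At the common median over genes, the median of the 9 genes was -1.02 at 3 d and -0.46 at 10 d. With inhibitor it was -0.95 and -0.45. For the inhibitor effect it was 0.11 at 3 d, 0.021 at 10 d and 0.075 over both. Relative to fibre markers the median of the 9 was -0.40 at 10 d and 0.30 between the times. For the difference of the inhibitor effects it was -0.21, and with inhibitor against no overload it was -0.74 and -0.52. With single pools left out it ran from -0.85 to -0.71 at 3 d, -0.38 to -0.22 at 10 d, -0.84 to -0.71 and -0.44 to -0.28 with inhibitor, -0.0095 to 0.11 for the inhibitor at 3 d and -0.18 to -0.0014 for the difference.

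Signs turned in uncalled values near 0. For the inhibitor at 3 d Sucla2 was at 0.0088 at a common median over all probe sets, 0.055 at that over genes and 0.046 relative to fibre markers. At 10 d the common median over genes gave 0.080 for Idh3a, 0.021 for Idh3b, 0.017 for Idh3g, 0.022 for Mdh2 and 0.011 for Ogdh, and fibre markers gave -0.040 for Sucla2. With single pools left out, Idh3b at 10 d against no overload ran from -0.10 to 0.019. The inhibitor effect at 3 d ran from -0.017 to 0.098 for Idh3a, -0.059 to 0.061 for Mdh2, -0.043 to 0.063 for Suclg1, -0.037 to 0.013 for Sucla2, -0.0095 to 0.23 for Idh3b, -0.067 to 0.13 for Idh3g and -0.025 to 0.11 for Ogdh. At 10 d it ran from -0.11 to 0.11 for Idh3a, -0.14 to 0.011 for Idh3g, -0.060 to 0.19 for Suclg1, -0.043 to 0.068 for Sucla2 and -0.28 to 0.052 for Idh2. The causes were not tested.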

Other observations

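Of 13 genes of the mitochondrial outer membrane and import, Hspe1 alone passed between 3 d and 10 d of overload, and 8 of the 13 were below 0 there. Hspe1, the small partner of the matrix chaperonin, was at 0.46 ± 0.18 after 3 d (limma adjusted p = 0.132) and fell by 1.01 ± 0.18 between 3 d and 10 d of overload (adjusted p = 0.0188), while Hspd1 (0.00) and Hspa9 (0.01) did not pass at 3 d. In that second interval none of the 9 TCA genes was below 0. The difference between the lists was not tested.

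In the genes of fatty acid oxidation, all 16 values with the inhibitor at 3 d were above 0 (median 0.23), and none passed. At 10 d 12 of the 16 were below 0 (median -0.09). The TCA genes had medians of 0.04 and -0.06 in these comparisons.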
